A study of Mus musculus with 14 samples.

Results

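The 10 genes described here carry glucose carbon through glycolysis to lactate and move lactate across the plasma membrane: Hk1, Hk2, Gpi1, Pfkp, Pgk1, Pgam1, Eno1, Ldha, Ldhb and Slc16a1. They were chosen by gene symbol, for their place in the pathway, from the 23427 genes of the deposited FPKM table. Earlier results of these data were known when they were chosen. All 10 passed the filter on low values, which kept genes with a level of 1 FPKM or more in 2 or more libraries. FPKM are mapped fragments divided by the exon length of the gene and the depth of the library. Glycolysis splits glucose into pyruvate in the cytosol, and lactate dehydrogenase interconverts pyruvate and lactate. In the nervous system, oligodendrocytes are known to use glycolysis themselves and to pass lactate to the axons they ensheath through the monocarboxylate transporter Mct1, which Slc16a1 encodes.

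The study asked what the RNA-binding protein Sbp2l, encoded by Secisbp2l, does in the maturation of the oligodendrocyte lineage. Poly(A)-selected RNA from primary oligodendrocyte precursor cells (OPCs) and the OPC/OLs they form was sequenced in 14 libraries, 2 for each of 7 groups. All cells were wild-type C57BL/6J, purified from the cortices of mouse pups by panning on an antibody against PDGFRα and grown in a medium that contained pyruvate. Day0 cells were taken before differentiation, which was started by removing PDGF-AA and adding the thyroid hormone T3, and the other 6 groups were taken at Day3. They received no treatment (non-treated), a mock transfection, the non-targeting NC siRNA #1, NC siRNA #2, siSbp2l against Secisbp2l, or siPdgfra against Pdgfra, the last 2 being the knockdowns (KDs). Cells of several pups were pooled, and the labels number the replicates without saying which cultures they came from, so the p-values measure the spread between these libraries. The sample labels name a serum-containing medium, which differs from the study's methods.

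The estimated depth was 6548541 fragments in NC siRNA #2 replicate 2 and between 18479967 and 31566369 in the other 13 libraries. Secisbp2l was at 3.91 and 3.82 FPKM in siSbp2l and between 134.7 and 255.2 FPKM in the 8 Day3 control libraries, and Pdgfra was at 3.30 and 2.69 FPKM in siPdgfra against 32.4 to 72.1 FPKM in the controls, so both labels matched their targets. The summed level of 9 OPC markers was 2214 and 2529 FPKM at Day0 and 941 to 1408 FPKM at Day3. The summed level of 10 oligodendrocyte markers was 791 and 872 FPKM at Day0, 7075 to 10350 FPKM in the 4 Day3 control groups, 2847 and 3049 FPKM in siSbp2l, and 5319 and 6110 FPKM in siPdgfra. Summed levels were at most 9.46 FPKM for 9 microglia markers, 1.94 for 7 endothelial markers and 0.350 for 7 markers of mural cells or fibroblasts. Of these, Cldn5, Cdh5, C1qb and C1qc were at 0 in all 14 libraries. A mean of 1 FPKM or more was reached by 1 microglia marker in every Day3 group and by 1 endothelial marker in the 4 control groups. The microglia sum was 0.53 and 0.71 FPKM at Day0 and 8.81 and 9.46 FPKM in NC siRNA #1. The 8 astrocyte markers summed to 30.7 to 112 FPKM. Of them, 2 averaged 1 FPKM or more at Day0 and 4 or 5 in the Day3 groups, with Gjb6 at 0 in every library. The 8 neuron markers summed to 33.4 to 283 FPKM, of which the tubulin gene Tubb3 alone gave 22.8 to 273 FPKM. Between 2 and 4 of the neuron markers averaged 1 FPKM or more in each group. In these bulk samples, fewer cells of one kind and less RNA per cell cannot be told apart. The non-treated pair stood apart from the other pairs. All 10 genes were higher in its replicate 1 than in its replicate 2, by a median of 0.41 on the log2(FPKM + 1) scale against 0.09 over all genes, and where 1 library of this pair decides a call of the 10 genes, the value without it is given.

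Sequence upstream of 6 of the genes is shown: Hk1, Ldhb and Pgk1 because they differed from every control group in a KD, and Ldha, Hk2 and Slc16a1 because their falls from Day0 to non-treated cells were the largest of the 10. Each is 80 bases of the RefSeq promoter on the strand of the gene, 5′ to 3′, from GRCm38, which is the same build as the mm10 of the deposited table. Capitals mark the motif ACGTG on either strand, read as CACGT on the other one. This motif is the core of the element bound by hypoxia-inducible factors, and it lies within CACGTG, the E-box bound by Myc and related factors. Where it did not occur in the 250 bases before the RefSeq start site, the 80 bases just before that site are shown.
Hk1 (chr10:62379909-62379988, minus strand): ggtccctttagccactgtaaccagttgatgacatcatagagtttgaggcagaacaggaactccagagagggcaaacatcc
Hk2 (chr6:82774465-82774544, minus strand): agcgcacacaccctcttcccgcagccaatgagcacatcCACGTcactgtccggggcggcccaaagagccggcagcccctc
Pgk1 (chrX:106186922-106187001, plus strand): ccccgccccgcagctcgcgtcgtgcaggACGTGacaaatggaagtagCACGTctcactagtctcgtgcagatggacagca
Ldha (chr7:46845723-46845802, plus strand): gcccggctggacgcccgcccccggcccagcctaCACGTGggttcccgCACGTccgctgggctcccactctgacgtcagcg
Ldhb (chr6:142507958-142508037, minus strand): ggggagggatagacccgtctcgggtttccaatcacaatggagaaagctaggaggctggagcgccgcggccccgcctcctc
Slc16a1 (chr3:104638427-104638506, plus strand): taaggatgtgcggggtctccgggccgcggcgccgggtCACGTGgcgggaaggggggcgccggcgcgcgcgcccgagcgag
Searched on both strands over the 250 bases before 1 start site per gene, with a CACGTG counted once, ACGTG occurred at 3 sites of Ldha, 2 of Hk2, 2 of Pgk1, 1 of Slc16a1 and 1 of Pgam1. CACGTG accounted for 2 of the sites of Ldha and the single site of Slc16a1. The Hk2 site 226 bases and the Ldha CACGTG 145 bases before the start site lie outside the 80 bases shown. The windows of Hk1, Gpi1, Pfkp, Eno1 and Ldhb held none, so 5 of the 10 genes had the motif, while 16.6% of all 32851 promoters had ACGTG and 6.02% had CACGTG. These matches describe the letters of the windows and not binding.

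Per exon length, the genes spanned a wide range of levels. The mean over 14 libraries was 276 FPKM for Pgk1 and 145 for Pgam1, at percentiles 98.7 and 96.7 of the genes tested, and Ldha and Eno1 lay at percentiles 93.5 and 93.3. Gpi1 averaged 54.8, Ldhb 51.6 and Hk1 24.6 FPKM. Pfkp at 10.9, Slc16a1 at 8.65 and Hk2 at 2.998 FPKM were the low members, and Hk2 lay at percentile 18.4. The smallest estimated number of fragments behind a value was 87, for Pfkp in NC siRNA #2 replicate 2, which is a counting error of 10.7%.

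**Figure D1:**
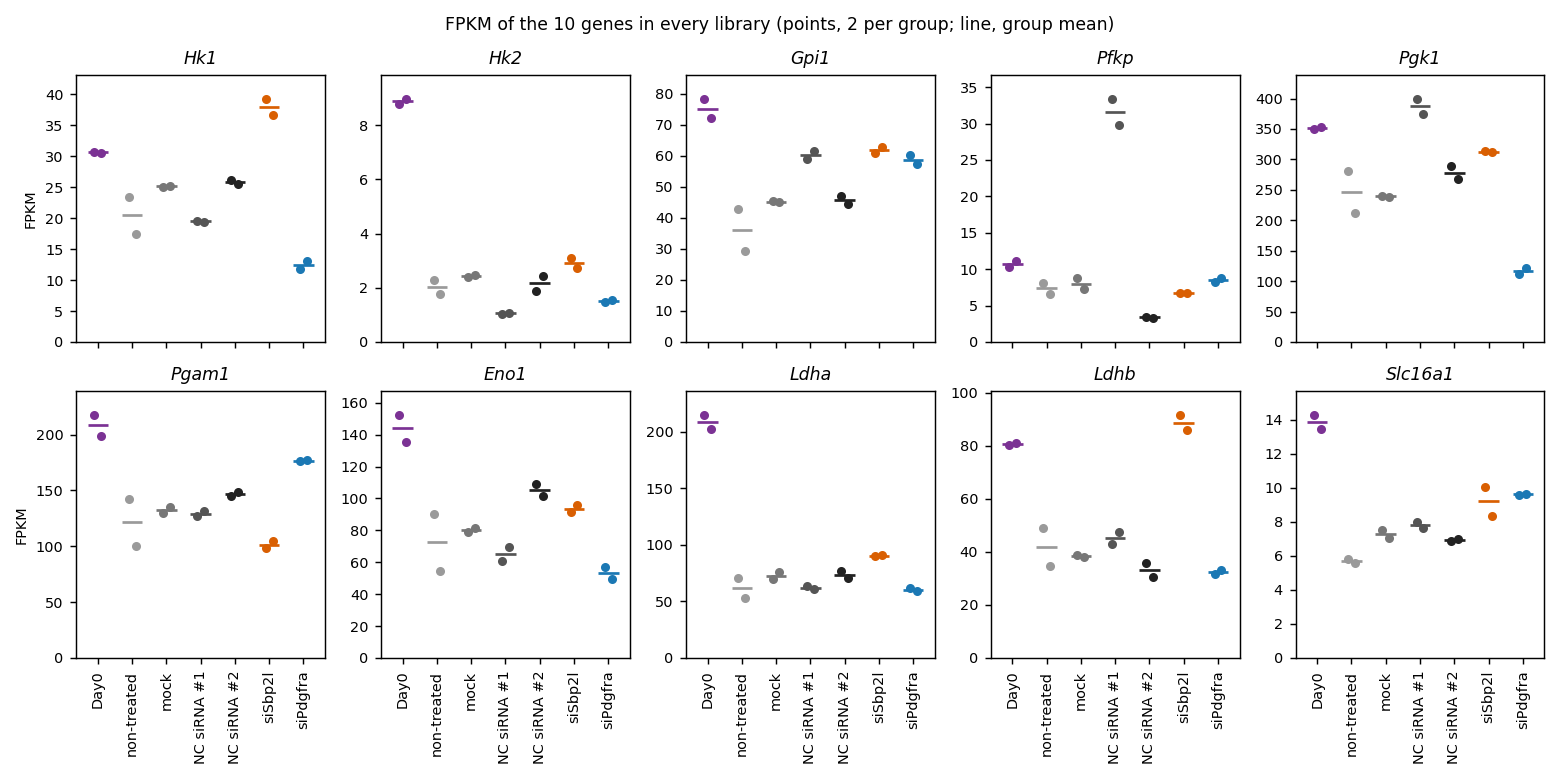
FPKM of each of the 10 genes (vertical axes, linear from 0, one scale per gene) in the 7 groups (horizontal axis), with 1 point per library and a line at the group mean, n = 2. Day0 lies above every Day3 library for Hk2, Gpi1, Pgam1, Eno1, Ldha and Slc16a1, siSbp2l is the highest group for Hk1 and Ldhb, and Pfkp in NC siRNA #1, at 33.4 and 29.8, stands far above its other groups.

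The first question was how the pathway changed as the cells differentiated. In limma fits of log2(FPKM + 1) over all 14 libraries, all 10 genes were lower in Day3 non-treated than in Day0 cells at an adjusted p under 0.05, where 38.6% of the 11874 genes tested were lower and 28.4% were higher. Their median difference was -0.99, against -0.12 over all genes tested. In mock cells 9 of the 10 were lower, all but Hk1, where 36.6% of the genes tested were lower and 29.7% higher, with medians of -0.78 and -0.07. A change of at least 2-fold as well was met by 5 genes in non-treated cells (Hk2, Gpi1, Eno1, Ldha and Slc16a1) and by 3 in mock cells (Hk2, Ldha and Ldhb), where the background was 26.6% and 26.2%. Of the genes called, only Ldha stayed past 2-fold in every alternative setting. The smallest changes of Hk2 were -0.99 in non-treated and -0.90 in mock cells. They were -0.82 for Slc16a1 in non-treated and -0.96 for Ldhb in mock cells, and Gpi1 and Eno1 are described below. The 2 comparisons share the Day0 libraries. With upper-quartile scaling the median of all genes in non-treated minus Day0 moved to 0.00, with 33.6% of genes higher and 33.4% lower, and all 10 genes still fell.

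Hexokinases trap glucose as glucose 6-phosphate, and Hk2 is the inducible form while Hk1 is the common form of brain. Hk2 (chr6:82725027-82774454) was at 8.80 and 8.97 FPKM at Day0, at 2.27 and 1.76 in non-treated and at 2.39 and 2.46 in mock cells. All 12 Day3 libraries lay at or below 3.10 FPKM. Hk2 fell by 1.72 ± 0.11 (SE) in non-treated cells, limma adjusted p = 1.3e-07, and by 1.53 ± 0.11 in mock cells, limma adjusted p = 3.5e-07, both on the log2(FPKM + 1) scale. Hk1 (chr10:62268855-62379908) was at 30.8 and 30.6 FPKM at Day0, at 23.5 and 17.5 in non-treated and at 25.1 and 25.2 in mock cells. It fell by 0.58 ± 0.12 in non-treated cells, limma adjusted p = 0.0012, and differed by -0.28 ± 0.12 in mock cells, limma adjusted p = 0.060. The mock value of Hk1 passed when either non-treated library was left out of the fit (limma adjusted p = 0.0019 without either). Per exon length, Hk2 was 0.290 ± 0.005 (SD, n = 2) of Hk1 at Day0 and between 0.0545 and 0.123 of it in the 6 Day3 groups.

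Phosphoglucose isomerase, encoded by Gpi1, and the platelet-type phosphofructokinase Pfkp follow the hexokinase step. Gpi1 (chr7:34201327-34230305) was at 78.4 and 72.2 FPKM at Day0, at 43.0 and 29.4 in non-treated and at 45.4 and 45.1 in mock cells. Gpi1 fell by 1.06 ± 0.14 and by 0.72 ± 0.14 in the 2 comparisons (limma adjusted p = 4.7e-05 and 0.00084). Its 2-fold call in non-treated cells rested on 1 library, since the difference was -0.79 without non-treated replicate 2 and -1.32 without replicate 1. Pfkp (chr13:6579874-6648724) moved least of the 10 in non-treated cells, from 10.3 and 11.1 FPKM at Day0 to 8.12 and 6.59, a fall by 0.49 ± 0.12 (limma adjusted p = 0.0030). In mock cells, at 8.74 and 7.30 FPKM, it fell by 0.38 ± 0.12 (limma adjusted p = 0.014), a call that was lost without Day0 replicate 2 (adjusted p = 0.088) or without mock replicate 2 (adjusted p = 0.13).

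The lower part of glycolysis, which yields ATP, is represented by phosphoglycerate kinase (Pgk1), phosphoglycerate mutase (Pgam1) and enolase (Eno1). Eno1 (chr4:150237197-150248873) was at 152 and 135 FPKM at Day0, at 90.4 and 54.5 in non-treated and at 79.0 and 81.8 in mock cells. Pgam1 (chr19:41911871-41918665) was at 218 and 199 FPKM at Day0, at 142 and 101 in non-treated and at 130.1 and 135 in mock cells. The Day0 libraries of both genes lay above all 12 Day3 libraries. In non-treated cells Eno1 fell by 1.02 ± 0.19 (limma adjusted p = 0.00054), with -0.66 without non-treated replicate 2 and -1.38 without replicate 1. Pgam1 fell by 0.79 ± 0.14 (limma adjusted p = 0.00035). Its difference was -0.54 without non-treated replicate 2 and -1.04, past 2-fold, without replicate 1. In mock cells the falls were by 0.83 ± 0.19 for Eno1 and by 0.65 ± 0.14 for Pgam1 (limma adjusted p = 0.0023 and 0.0014). Pgk1 (chrX:106187124-106203699) was at 349 and 353 FPKM at Day0, at 280.3 and 212 in non-treated and at 240.1 and 239 in mock cells. It fell by 0.53 ± 0.12 and by 0.55 ± 0.12 (limma adjusted p = 0.0029 and 0.0021), but its Day0 libraries were not above every Day3 library, since NC siRNA #1 was at 399 and 375 FPKM.

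Lactate dehydrogenase is a tetramer of A and B subunits, of which the A subunit, from Ldha, is classically tied to lactate formation and the B subunit, from Ldhb, to lactate use. Ldha (chr7:46845804-46855627) was at 215 and 203 FPKM at Day0, at 70.4 and 52.9 in non-treated and at 69.4 and 75.9 in mock cells. It fell by 1.76 ± 0.12 and by 1.51 ± 0.12 (limma adjusted p = 2.3e-07 and 8.5e-07), with all 12 Day3 libraries at or below 90.8 FPKM. Ldhb (chr6:142490249-142507943) was at 80.2 and 81.2 FPKM at Day0, at 49.2 and 34.7 in non-treated and at 38.8 and 38.0 in mock cells. It fell by 0.95 ± 0.14 and by 1.05 ± 0.14 (limma adjusted p = 1.2e-04 and 5.4e-05). Without non-treated replicate 1 the first of these was -1.19, and without replicate 2 it was -0.70. The ratio of Ldha to Ldhb FPKM was 2.59 ± 0.13 (SD, n = 2) at Day0, 1.48 ± 0.065 in non-treated and 1.89 ± 0.14 in mock cells.

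Slc16a1 (chr3:104638668-104658462), the lactate and pyruvate carrier Mct1, was at 14.3 and 13.5 FPKM at Day0, at 5.80 and 5.60 in non-treated and at 7.55 and 7.08 in mock cells. Day0 lay above all 12 Day3 libraries. Slc16a1 fell by 1.15 ± 0.10 and by 0.84 ± 0.10 (limma adjusted p = 9.9e-07 and 1.4e-05). The non-treated pair was close for this gene, and the difference was -1.18 without its replicate 1 and -1.13 without its replicate 2.

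**Figure D2:**
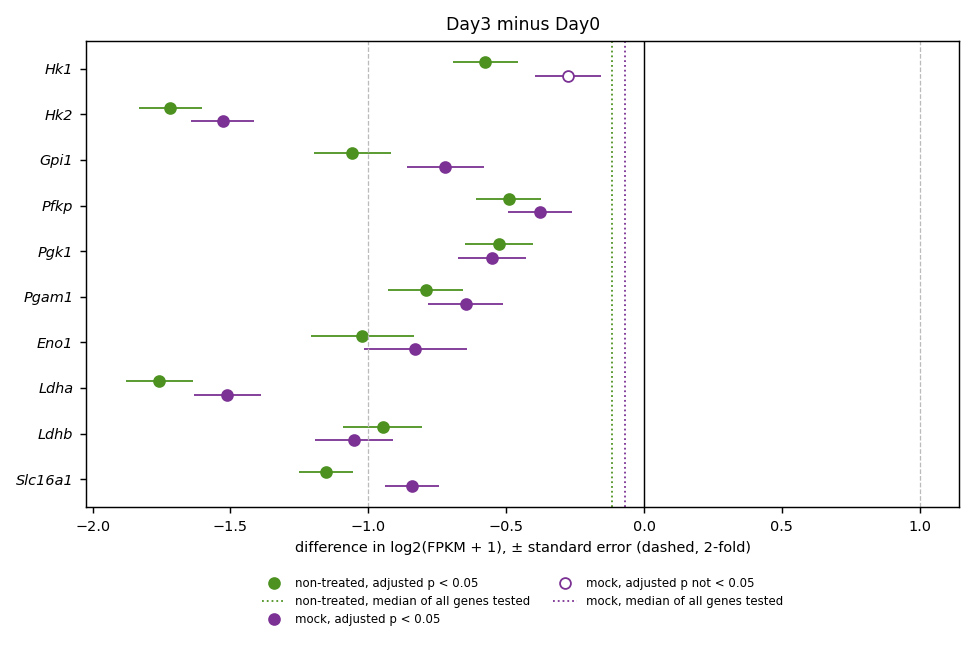
Difference in log2(FPKM + 1), ± standard error, of Day3 non-treated and Day3 mock cells from Day0 for each of the 10 genes, with filled points at an adjusted p under 0.05, dashed lines at 2-fold and dotted lines at the medians of all genes tested (-0.12 and -0.07). Every point lies below 0 and below both medians, and the farthest is Ldha in non-treated cells at -1.76.

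The steps not covered by the 10 genes moved in both directions over the same interval, and values in mock cells are given beside those of the discordant non-treated pair. Of 14 entries for other glycolytic enzymes tested in non-treated minus Day0, 6 fell and 4 rose, with a median of -0.38. These entries include Pgam5, which is not itself an enzyme of glycolysis, and Gm5506, a copy of Eno1. In mock minus Day0, 6 fell and 5 rose, with a median of -0.07. Pyruvate kinase (Pkm), from 526 ± 22.6 at Day0 to 226 ± 72.8 FPKM (SD, n = 2), fell by 1.25, and glyceraldehyde 3-phosphate dehydrogenase (Gapdh) fell by 1.12 (limma adjusted p = 7.0e-05 and 3.9e-05). In mock cells they fell by 1.02 and by 1.08. The neuron-type enolase Eno2 rose by 3.40, from 1.55 ± 0.13 to 26.0 ± 5.02 FPKM (SD, n = 2, limma adjusted p = 9.4e-10), and by 3.71 in mock cells. Triose phosphate isomerase (Tpi1) differed by -0.43 in non-treated and by 0.24 in mock cells (limma adjusted p = 0.057 and 0.26). In the branches that leave glycolysis, 11 of 14 genes for the pentose phosphate, serine and glycerol 3-phosphate routes fell and 3 rose in non-treated cells, and 9 fell and 2 rose in mock cells. Phgdh, which opens serine synthesis, fell by 2.24, the ribose isomerase Rpia by 1.55 and transketolase (Tkt) by 1.32, while transaldolase (Taldo1) rose by 1.58. The mock values of these 4 genes were -2.05, -1.84, -0.90 and 1.63, all at a limma adjusted p under 0.05.

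Partners of the lactate step also changed between Day0 and non-treated cells. Of 7 other genes of lactate and pyruvate transport, 3 rose and 1 fell, and in mock minus Day0 4 rose and 1 fell. Slc16a7, the carrier Mct2, rose from 5.04 ± 0.27 to 21.3 ± 8.77 FPKM, by 1.83 (limma adjusted p = 9.1e-06). Emb, whose product embigin escorts carriers of this family to the membrane, fell from 14.4 ± 0.0084 to 2.77 ± 0.83 FPKM, by 2.04 (limma adjusted p = 2.8e-07). Bsg, whose product basigin is the partner of Mct1, differed by 0.45 in non-treated cells (limma adjusted p = 0.060) and rose by 0.64 in mock cells (limma adjusted p = 0.0135). Of the mitochondrial pyruvate carrier genes, Mpc2 rose by 0.72 and by 0.77 in mock cells, and Mpc1 differed by 0.37 and by -0.23 (limma adjusted p = 0.058 and 0.21). In mock cells Slc16a7 rose by 1.88 and Emb fell by 1.94. Among 10 genes of pyruvate dehydrogenase and its kinases 3 rose and 1 fell, led by the kinase gene Pdk2, which rose by 2.39 (limma adjusted p = 2.2e-07), and the counts were the same in mock cells, where Pdk2 rose by 2.58. Of 8 genes of the malate-aspartate shuttle, which carries cytosolic reducing equivalents into mitochondria, none rose and 6 fell in non-treated cells and none rose and 5 fell in mock cells, where Slc25a13 fell by 1.57 and by 1.40. Of 6 glucose transporter genes 2 rose and 3 fell in non-treated cells, and 2 rose and 2 fell in mock cells. Slc2a13, which transports myo-inositol, fell by 1.35 and by 1.31, and Slc2a1, the main glucose carrier Glut1, was at 7.30 FPKM at Day0 and 6.87 in non-treated cells (limma adjusted p = 0.63).

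Of 13 hypoxia-response genes outside glycolysis, 10 rose, 1 fell and 2 did not pass between Day0 and non-treated cells, with a median of 0.86. In mock cells 9 rose and 1 fell, with a median of 1.06. Mxi1 rose by 2.66, Vegfa by 2.17, Bnip3 by 1.78 and Ddit4 by 1.49 (limma adjusted p = 8.1e-10, 2.1e-07, 1.2e-06 and 2.5e-04). Their mock values were 2.76, 1.79, 1.59 and 1.91. The single gene that fell was Egln1, an oxygen-sensing prolyl hydroxylase, at -0.42 in non-treated and -0.37 in mock cells (limma adjusted p = 0.0020 and 0.0044), named here after its values were seen. Among 10 regulators of glycolytic flux, 5 rose and 2 fell in non-treated cells, and 6 rose and 3 fell in mock cells. Myc, a transcription factor that drives many glycolytic genes, fell by 2.15, from 92.6 ± 1.7 to 20.5 ± 6.0 FPKM, and Epas1, which encodes the hypoxia-inducible factor subunit Hif2α, rose by 1.95 (limma adjusted p = 2.6e-07 and 8.2e-09). In mock cells Myc fell by 1.88 and Epas1 rose by 2.18.

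The next comparison asked what siSbp2l did at Day3, against the mean of the 4 control groups with equal weight. In limma fits over the 12 Day3 libraries, 8 of the 10 genes passed, 6 higher (Hk1, Hk2, Gpi1, Ldha, Ldhb and Slc16a1) and 2 lower (Pfkp and Pgam1), where 35.5% of the 11650 genes tested were higher and 17.9% lower. The median of the 10 differences was 0.40, against 0.15 over all genes tested. With a change of at least 2-fold as well, Ldhb alone was called, where the background was 7.19%. Across the alternative settings the difference of Ldhb ran from 0.99 to 1.22, so not every setting kept it at 2-fold. Scaling the libraries by median ratios moved the median of all genes to 0.00, with 22.5% of genes higher and 24.6% lower, and left 6 of the 10 genes, 4 higher and 2 lower, without Gpi1 (0.26, limma adjusted p = 0.053) and Slc16a1 (0.22, limma adjusted p = 0.057). Hk1 and Ldhb passed against each of the 4 control groups in turn.

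Ldhb was at 91.7 and 85.9 FPKM in siSbp2l. The 8 control libraries ranged from 30.5 to 49.2 FPKM with a median of 38.4, so the groups did not overlap. The group mean of 88.8 ± 4.13 FPKM (SD, n = 2) was 2.23 times the control mean, and it was also the highest of the 7 groups, above the 80.2 and 81.2 FPKM of Day0. On the log2(FPKM + 1) scale Ldhb rose by 1.16 ± 0.12 (SE, limma adjusted p = 3.1e-05). Against the single control groups the differences ran from 0.95 against NC siRNA #1 to 1.40 against NC siRNA #2, with limma adjusted p between 6.8e-05 and 0.00064. Ldha was at 90.2 and 90.8 FPKM against 52.9 to 77.2 FPKM in the controls, without overlap, and rose by 0.43 ± 0.10 (limma adjusted p = 0.0058). The call for Ldha was lost without siSbp2l replicate 1 or 2 (limma adjusted p = 0.053 and 0.054). The ratio of Ldha to Ldhb was 1.02 ± 0.053 in siSbp2l, the lowest of the 7 groups, and its libraries at 0.983 and 1.06 lay below the lowest control library at 1.28.

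Hk1 was at 39.3 and 36.7 FPKM in siSbp2l, above the 8 control libraries, which ranged from 17.5 to 26.1 FPKM, and above Day0. Hk1 rose by 0.73 ± 0.10 (limma adjusted p = 2.1e-04), and by 0.54 to 0.93 against the single control groups. Hk2 was at 3.10 and 2.74 FPKM, just above the highest control library at 2.46 FPKM and far below Day0. Hk2 rose by 0.45 ± 0.10 (limma adjusted p = 0.0028), but without siSbp2l replicate 1 the adjusted p was 0.053. Against mock and against NC siRNA #2 the difference for Hk2 was 0.19 and 0.32 (limma adjusted p = 0.23 and 0.060).

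Slc16a1 was at 10.1 and 8.37 FPKM in siSbp2l, above the 8 control libraries, which ranged from 5.60 to 7.999 FPKM with a median of 7.05, and below Day0. It rose by 0.36 ± 0.08 (limma adjusted p = 0.0039). Without siSbp2l replicate 1, the higher of the pair, the difference was 0.25 (limma adjusted p = 0.10). Gpi1 was at 61.1 and 63.0 FPKM and overlapped the controls, which reached 61.5 FPKM in NC siRNA #1. Relative to the control mean it rose by 0.43 ± 0.12 (limma adjusted p = 0.011), yet differed by 0.04 from NC siRNA #1. Its call was lost without siSbp2l replicate 1 or 2 (adjusted p = 0.070 and 0.090) and without the non-treated group among the controls (adjusted p = 0.055).

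The remaining 4 genes, from the middle and lower pathway, had lower levels or did not pass. Pgam1 was at 98.2 and 105 FPKM in siSbp2l against 101 to 149 FPKM in the controls. It fell by 0.37 ± 0.11 (limma adjusted p = 0.018), a call lost without siSbp2l replicate 1 or 2 (adjusted p = 0.15 and 0.072). Pfkp was at 6.78 and 6.79 FPKM, inside a control range of 3.34 to 33.4 FPKM. Its fall by 0.39 ± 0.10 (limma adjusted p = 0.0070) joined -2.06 against NC siRNA #1 with 0.82 against NC siRNA #2, and it was lost without siSbp2l replicate 1 or 2 (adjusted p = 0.063 and 0.059). Pgk1, at 313 and 312 FPKM, differed by 0.15 ± 0.10 (limma adjusted p = 0.24), and Eno1, at 91.5 and 95.8 FPKM, by 0.25 ± 0.15 (limma adjusted p = 0.20). Without non-treated replicate 1 these 2 differences were larger, at 0.20 and 0.34. Pgk1 and Eno1 each newly passed in 1 of 20 alternative settings.

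**Figure D3:**
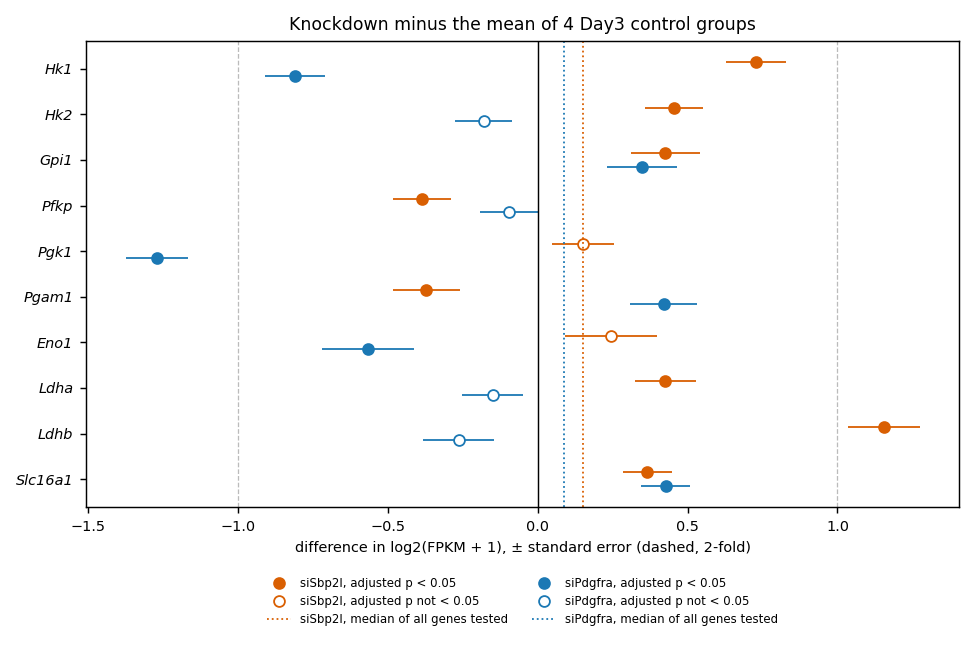
Difference in log2(FPKM + 1), ± standard error, of siSbp2l and siPdgfra from the mean of the 4 Day3 control groups for each of the 10 genes, with filled points at an adjusted p under 0.05, dashed lines at 2-fold and dotted lines at the medians of all genes tested (0.15 and 0.09). Ldhb in siSbp2l at 1.16 and Pgk1 in siPdgfra at -1.27 are the points beyond 2-fold. Hk1 and Pgam1 are the genes with filled points on opposite sides of 0 in the 2 KDs.

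Around these genes, siSbp2l moved the 14 entries for other glycolytic enzymes in both directions, with 4 higher and 4 lower and a median of 0.10. Among them, Pgam5 was at -0.56 and Gm5506 at 0.38. Tpi1 fell by 1.21, from group means of 31.7 to 53.7 FPKM in the controls to 18.2 ± 1.42 FPKM (SD, n = 2), and Eno2 fell by 1.17 (limma adjusted p = 1.2e-04 and 7.8e-06). The liver-type phosphofructokinase Pfkl rose by 0.86 (limma adjusted p = 0.00069). Of 7 other lactate and pyruvate transport genes none rose and 4 fell, among them Emb by 0.72 and Mpc1 by 0.66, and Bsg differed by 0.10 (limma adjusted p = 0.63). Of 6 glucose transporter genes 3 rose and 2 fell. Slc2a6 fell by 1.08 and Slc2a1 by 0.57. Of 10 pyruvate dehydrogenase genes 2 rose and 3 fell, with Pdha1, the catalytic subunit, up by 0.65 and Pdk2 down by 0.62.

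Among the 10 regulators of glycolytic flux 6 rose and 2 fell in siSbp2l. Myc rose by 1.18, to 41.4 ± 0.6 FPKM from control means of 9.74 to 24.4 FPKM (limma adjusted p = 4.1e-05), still below the 92.6 FPKM of Day0. Of 13 hypoxia-response genes 3 rose and 4 fell, and Vegfa, a growth factor for blood vessels, fell by 1.71 to 2.59 ± 0.63 FPKM. In the pentose phosphate, serine and glycerol 3-phosphate branches 4 rose and 4 fell, with the glycerol 3-phosphate dehydrogenase Gpd1 down by 1.24. In the malate-aspartate shuttle 3 rose and 1 fell, led by Got1, down by 0.64, and Slc25a22, up by 0.47. The oligodendrocyte marker sums given above were lower in both KDs than in every control library, and their part in these differences was not tested.

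The siPdgfra KD gave another pattern against the same 8 control libraries. In limma fits 6 of the 10 genes passed, 3 higher (Gpi1, Pgam1 and Slc16a1) and 3 lower (Hk1, Pgk1 and Eno1), where 32.4% of the genes tested were higher and 23.0% lower. The median of the 10 was -0.17, against 0.09 over all genes. With upper-quartile scaling 8 passed, 2 higher and 6 lower, where 26.0% of genes were higher and 27.3% lower. At 2-fold as well, Pgk1 alone was called, where the background was 7.99%. Hk1 and Pgk1 were lower against each of the 4 control groups.

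Pgk1 was at 111 and 121 FPKM in siPdgfra, below the control range of 212 to 399 FPKM and the lowest of the 7 groups. Its group mean of 116 ± 7.16 FPKM (SD, n = 2) was 0.404 times the control mean. Pgk1 fell by 1.27 ± 0.10 (limma adjusted p = 6.2e-06), and the differences from the single control groups ran from -1.04 against mock to -1.73 against NC siRNA #1. Hk1 was at 11.8 and 13.1 FPKM, also the lowest group and below the 17.5 FPKM of the lowest control library. Hk1 fell by 0.81 ± 0.10 (limma adjusted p = 1.0e-04), by 0.61 to 1.00 against the single controls. Eno1 was at 56.7 and 49.4 FPKM, overlapping the controls, of which non-treated replicate 2 was at 54.5 FPKM. It fell by 0.57 ± 0.15 (limma adjusted p = 0.0105), and the call was lost without siPdgfra replicate 2 (-0.47, adjusted p = 0.12).

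Pgam1 went the opposite way from its neighbours in the pathway, at 176 and 177 FPKM above the 8 control libraries, which reached 149 FPKM. Pgam1 rose by 0.42 ± 0.11 (limma adjusted p = 0.0097), a call lost without siPdgfra replicate 1 or 2 (adjusted p = 0.064 and 0.068). Slc16a1 was at 9.60 and 9.66 FPKM, above the controls, and rose by 0.43 ± 0.08 (limma adjusted p = 0.0015). It passed with each library left out in turn, with adjusted p of at most 0.020. Gpi1, at 60.2 and 57.2 FPKM inside the control range, rose by 0.35 ± 0.12 (limma adjusted p = 0.027). That call was lost without siPdgfra replicate 1 or 2 (adjusted p = 0.16 and 0.097), NC siRNA #1 replicate 1 (0.052) or NC siRNA #2 replicate 2 (0.053), with upper-quartile scaling (0.067), and without the non-treated group among the controls (0.13).

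The remaining 4 genes did not pass in siPdgfra. Hk2 was at 1.48 and 1.56 FPKM and differed by -0.18 ± 0.10 (limma adjusted p = 0.13). Pfkp, at 8.29 and 8.79 FPKM, differed by -0.095 ± 0.10 (limma adjusted p = 0.42). Ldha, at 61.7 and 59.1 FPKM, differed by -0.15 ± 0.10, and Ldhb, at 31.8 and 33.3 FPKM, by -0.26 ± 0.12 (limma adjusted p = 0.23 and 0.084). All 4 lay within the range of the control libraries, and the estimates for Hk2, Ldha and Ldhb passed when non-treated replicate 2 was left out (adjusted p = 0.046, 0.0070 and 0.0012). They passed as well with upper-quartile scaling (adjusted p = 0.048, 0.047 and 0.021), and Ldhb with median-ratio scaling (0.019) and without non-treated replicate 1 (0.018).

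**Figure D4:**
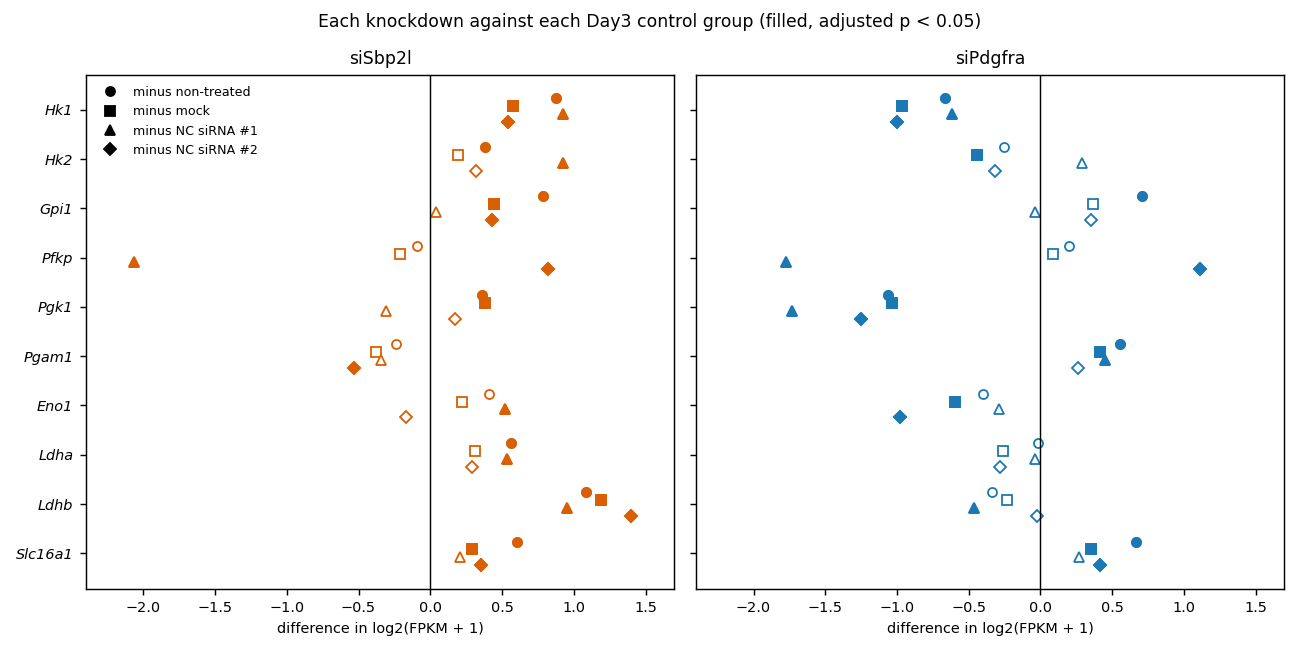
Difference in log2(FPKM + 1) of siSbp2l (left) and siPdgfra (right) from each Day3 control group on its own (marker shapes) for the 10 genes, filled where the adjusted p was under 0.05. Hk1 and Ldhb in siSbp2l and Hk1 and Pgk1 in siPdgfra are filled on one side of 0 for all 4 controls, and Pfkp ranges from -2.06 against NC siRNA #1 to 0.82 against NC siRNA #2 in siSbp2l.

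Of the 14 entries for other glycolytic enzymes 2 rose and 6 fell in siPdgfra. The 2 that rose were Pgam5 (0.71), not itself an enzyme of glycolysis, and Tpi1 (0.40, limma adjusted p = 0.048). Aldoc, an aldolase of brain, fell by 1.81 to 10.4 ± 0.302 FPKM from control means of 29.2 to 46.5 FPKM (limma adjusted p = 3.5e-06), and the muscle-type enolase Eno3 fell by 1.08. Of 6 glucose transporter genes none rose and Slc2a13 fell, by 1.17. In lactate and pyruvate transport 1 of 7 rose and 2 fell, and Emb rose by 1.04 to 9.28 ± 0.54 FPKM, with Bsg at 0.38 (limma adjusted p = 0.063). Pyruvate dehydrogenase genes were split, 4 higher and 3 lower of 10, with Pdpr down by 0.86 and Dld by 0.47. Of the regulators 1 rose and 5 fell, with Epas1 down by 1.35 and Myc up by 0.64. Of the hypoxia-response genes 4 rose and 6 fell, with Mxi1 down by 1.36 and Ero1l up by 1.12. Phgdh rose by 1.09 and the glutamate carrier gene Slc25a22 by 1.19, in lists where 3 rose and 1 fell each.

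The KDs were also compared directly, since their contrasts above share all control libraries. In siSbp2l minus siPdgfra 7 genes passed, 6 higher in siSbp2l (Hk1, Hk2, Pgk1, Eno1, Ldha and Ldhb) and 1 lower (Pgam1), where 28.5% of genes were higher and 23.4% lower. The median of the 10 was 0.61, against 0.06 over all genes. Hk1 (1.54 ± 0.13), Pgk1 (1.42 ± 0.13) and Ldhb (1.42 ± 0.15) also met 2-fold, where the background was 13.7% (limma adjusted p = 7.4e-06, 1.5e-05 and 3.7e-05). Eno1 was higher by 0.81 ± 0.19, Hk2 by 0.63 ± 0.12 and Ldha by 0.58 ± 0.13, and Pgam1 was lower, at -0.79 ± 0.14 (limma adjusted p between 0.0010 and 0.0057). Slc16a1 differed by -0.06 ± 0.10 and Gpi1 by 0.08 ± 0.15 between the KDs (limma adjusted p = 0.64 and 0.68), and both rose in each KD relative to the controls. Pfkp differed by -0.29 ± 0.12 (limma adjusted p = 0.068) and passed without either non-treated library (0.015 each) and with median-ratio or upper-quartile scaling (0.020 and 0.043).

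**Figure D5:**
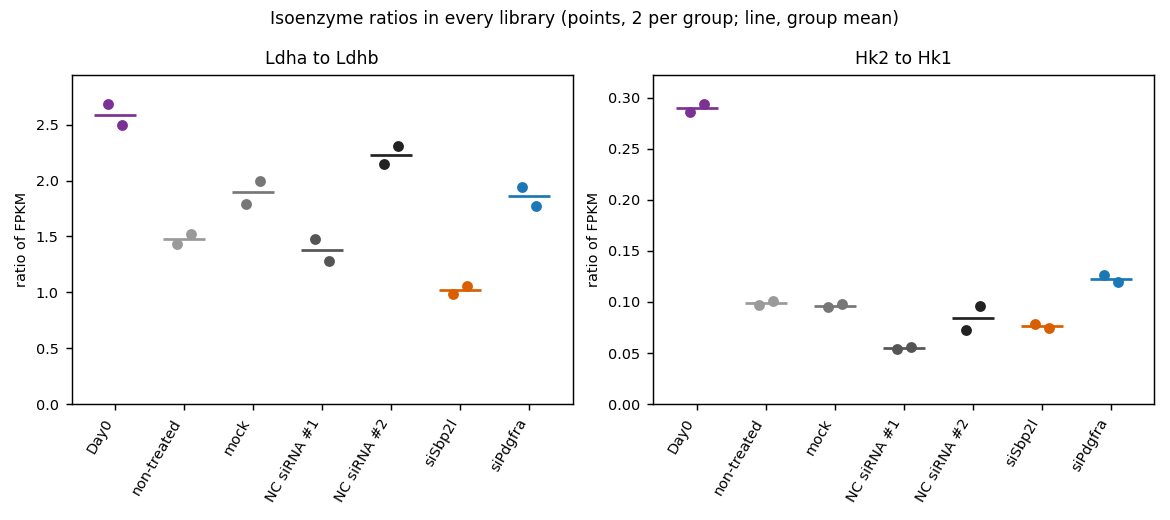
Ratio of Ldha to Ldhb FPKM (left) and of Hk2 to Hk1 FPKM (right) in the 7 groups, 1 point per library and a line at the group mean, n = 2, with axes from 0. The ratio of Ldha to Ldhb runs from 1.02 in siSbp2l to 2.59 at Day0, and that of Hk2 to Hk1 from 0.0545 in NC siRNA #1 to 0.290 at Day0.

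The control groups themselves differed for several of the 10 genes. Against the mean of non-treated and mock cells, the mean of the 2 NC siRNA groups was higher for Gpi1 (0.38 ± 0.10), Pfkp (0.47 ± 0.09) and Pgk1 (0.44 ± 0.09) and lower for Hk2 (-0.33 ± 0.09), with limma adjusted p between 0.0029 and 0.022. No gene was called at 2-fold. The background in this comparison was 16.3% higher, 11.8% lower and 1.28% at 2-fold. Gpi1 lost its call without any 1 of 6 libraries, those of mock, NC siRNA #1 and NC siRNA #2 (adjusted p between 0.056 and 0.078), and Hk2 lost its call without either mock or NC siRNA #1 library or NC siRNA #2 replicate 1 (adjusted p between 0.050 and 0.067). Without non-treated replicate 1, Pgam1 (0.25) and Eno1 (0.32) passed as well (adjusted p = 0.0010 and 0.0026).

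Between NC siRNA #2 and NC siRNA #1, Hk2 and Eno1 were higher in #2 and Pfkp and Pgk1 lower, 4 of 10, where 10.8% of genes tested were higher, 10.1% lower and 3.99% at 2-fold. Pfkp was at 33.4 and 29.8 FPKM in NC siRNA #1 and at 3.49 and 3.34 FPKM in NC siRNA #2. The other 10 libraries lay between 6.59 and 11.1 FPKM, so the 2 controls stood on opposite sides of all of them. The difference was -2.88 ± 0.12 (limma adjusted p = 4.6e-07), which ranked 9 by absolute size among the 11650 genes tested. Exons of Pitrm1, a gene on the other strand, overlap Pfkp in the GENCODE annotation, and Pitrm1, singled out after its values were seen, was at 28.3 and 28.8 FPKM in NC siRNA #1 and at 27.6 and 26.7 in NC siRNA #2. Hk2 was higher in NC siRNA #2 by 0.61 ± 0.12 and Eno1 by 0.69 ± 0.19, and Pgk1 differed by -0.48 ± 0.13 (limma adjusted p = 0.0054, 0.031 and 0.028). Without either non-treated library in the shared fit more of the 10 genes passed, but the share of all genes passing in those fits was not compared. With either scaling 6 passed, 2 higher and 4 lower, adding Gpi1 and Ldhb. Without NC siRNA #2 replicate 2 Pfkp alone passed, with Hk2 at an adjusted p of 0.058, Eno1 at 0.105 and Pgk1 at 0.17. Eno1 and Pgk1 also fell short without any other mock or NC siRNA library (adjusted p between 0.051 and 0.20), and Eno1 without either siSbp2l library (0.051) or with no filter on low values (0.058). Mock and non-treated cells differed for none of the 10 genes at an adjusted p under 0.05. The number of all genes passing there was not counted, and the comparison rests on the discordant non-treated pair. Slc16a1, with the smallest p of the 10, ranked 681 by p (limma adjusted p = 0.22), so fewer than 681 of the 11650 genes tested passed.

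Ordered by level, Day0 was the highest group for Hk2, Gpi1, Pgam1, Eno1, Ldha and Slc16a1, NC siRNA #1 for Pfkp and Pgk1, and siSbp2l for Hk1 and Ldhb. The lowest group was siPdgfra for Hk1, Pgk1, Eno1, Ldha and Ldhb. For Ldha, the libraries of siPdgfra and non-treated cells overlapped, as did those of non-treated cells and NC siRNA #1, and the order of these neighbours is not resolved. For Ldhb the libraries of siPdgfra and NC siRNA #2 overlapped at the low end, and siSbp2l and Day0 did not overlap at the high end. For Slc16a1 siPdgfra and siSbp2l overlapped below Day0.

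As a description over the 14 libraries, which share depth and group structure, the genes most like Ldha by Pearson r of log2(FPKM + 1) were Ier2 (0.99), Mapk11 (0.99) and Chrm1 (0.99). Those most like Ldhb were Fkbp5 (0.97), Rad52 (0.96) and Selenbp1 (0.96), and those most like Slc16a1 were Mina (0.97), Pprc1 (0.96) and Slx4 (0.96). Fkbp5 had means of 21.3 FPKM at Day0, 11.3 over the controls, 20.7 in siSbp2l and 10.5 in siPdgfra. Among the members, Ldha and Hk2 were most alike over 14 libraries (r = 0.96), a value that fell to 0.75 over the 12 Day3 libraries, and the r of Gpi1 with Slc16a1 was 0.87 and 0.83.

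Near-identical copies limit how sharply some of these genes can be told from others. Of the 100-base stretches of the annotated transcripts of Pgk1, 51.7% also occurred in other annotated genes, as did 33.9% for Pgam1 and 20.4% for Eno1. The share was 6.44% for Ldhb, 2.02% for Gpi1 and 0.59% for Ldha, and 0% for Hk1, Hk2, Pfkp and Slc16a1. Gm5506, a copy of Eno1 listed on its own in the table, was at 92.5 ± 7.12 FPKM at Day0, 48.3 ± 15.7 in non-treated cells, 65.3 ± 5.69 in siSbp2l and 31.6 ± 2.95 in siPdgfra (SD, n = 2). It fell by 0.96 from Day0 to non-treated cells, rose by 0.38 in siSbp2l and fell by 0.64 in siPdgfra (limma adjusted p = 0.00055, 0.0475 and 0.0040). How reads matching several genes were assigned is not given in the sources used here. The levels of genes that share stretches, most of all Pgk1, Pgam1 and Eno1, are uncertain to that extent. Values of Gm5506 and Eno1 likewise cannot be taken as independent of each other. A second entry named Gm5506 had group means of at most 1.5e-35 FPKM. Exons of Hk1, Gpi1 and Pfkp each overlap a gene on the other strand, and whether the counting used strand is not stated.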

How the data were processed

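Primary OPC/OLs were profiled by stranded poly(A) mRNA-seq. The authors processed the reads with OmicSoft ArrayStudio (aligner and counting settings not given in the sources used here) on mm10 and deposited FPKM, 1 column per library. Of these, 2 columns named only by day and replicate were matched to non-treated cells and 1 misspelled name to siSbp2l. A second deposited table gave exon lengths and positions, and its fold changes and p-values, made by the authors with DESeq2, were not used. Depth was estimated from the steps between low FPKM values (0.2 FPKM or more, up to 50 fragments), of which 89.5% to 93.0% came out whole within 0.1, and counting errors from it leave out all other error.

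Differences are from limma 3.58.1 (R 4.3.3) on log2(FPKM + 1), with trend and robust moderation, two-sided, with Benjamini-Hochberg adjustment over all genes tested. This scale understates changes of low genes. Genes at 1 FPKM or more in 2 libraries were tested, 11650 over 12 Day3 libraries and 11874 over 14. A gene passed at adjusted p under 0.05, and was called if it also changed 2-fold, the study's limit. The fit was tested on simulated data. Of the pathway lists, called genes were named, up to 4 per list and comparison by size, or else the 2 largest that passed, and the nearest pathway steps that no member covers could be named whatever their values. Members and lists were chosen with earlier results of these data known. No pair of replicates agreed within sampling noise, so none was merged. Promoters are from RefSeq (GRCm38.p6), and transcripts from GENCODE vM21. Alternatives tried were other pseudocounts, filters, scalings and moderation, a replicate block, other control sets and each library left out.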

Additional observations from a re-analysis of the deposited data

Results flagged for a closer look

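Pfkp differed between the 2 non-targeting controls, with a log2(FPKM + 1) difference of -2.88 for NC siRNA #2 minus NC siRNA #1, tested in the limma fit of the 12 Day3 libraries. The libraries were at 33.4 and 29.8 FPKM in NC siRNA #1 and at 3.49 and 3.34 FPKM in NC siRNA #2, on opposite sides of the other 10 libraries, so any difference of Pfkp from a mean of controls joins these 2 levels.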

How the results depend on the processing

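Over 1435 recomputed differences of the 10 genes, 1354 kept their side of the adjusted p of 0.05. A further 49 fell short of it, 32 newly passed it, and 0 changed sign with a call. Small differences that passed in neither fit could change sign, as for Pgk1 in siSbp2l (0.151 in the main fit, -0.017 at the lowest). When a change of at least 2-fold was also asked, the counts of genes were 1 in siSbp2l (from 8), 1 in siPdgfra (from 6), 3 between the KDs (from 7), 0 for the NC siRNA mean (from 4), 1 between the NC siRNAs (from 4), 5 in non-treated minus Day0 (from 10) and 3 in mock minus Day0 (from 9). With 1 library left out at a time, the counts ran from 2 to 10 in siSbp2l, from 3 to 9 in siPdgfra, from 2 to 6 for the NC siRNA mean, and from 1 to 9 between the NC siRNAs. Passing against every control ran from 1 to 4 genes in siSbp2l and from 2 to 5 in siPdgfra. A lone library was then assumed to vary like the other groups, and non-treated replicates 1 and 2 were the libraries whose removal raised counts. The share of all genes passing in those fits was not compared with these counts. Replicate numbers did not pair the samples consistently. Over 21 pairs of groups, deviations of same-numbered libraries correlated from -0.38 to 0.47, above 0.1 in 4 and below -0.1 in 7. The highest value was between Day0 and non-treated cells, and the labels do not say whether groups shared cultures. A replicate block gave 8 genes in siSbp2l and 6 in siPdgfra, as without it. Depth limits Hk2 and Pfkp most, with counting errors of up to 10.7%.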
